A study of Mus musculus and Homo sapiens with 12 samples.

Results

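Heat shock proteins and chaperonins are the machinery that folds proteins in the cell. Members were the genes whose symbol in a deposited normalized table matched the names of the HSP90, HSP70, HSP110 (HSPH), small heat shock (HSPB) and mitochondrial chaperonin families, the J proteins DNAJA, DNAJB and DNAJC, the subunits TCP1 and CCT2 to CCT8, or the factors HSF1 and HSF2, with pseudogene names left out. This gave 79 gene names, of which 75 had a mouse identifier among 55487 mouse genes and 73 had a human one among 78932 human genes. Of the 79 names, 4 carry a hyphen and are counted with the rest; the human DNAJC3-DT, DNAJC9-AS1 and HSPA2-AS1 among them are described apart. The rule itself read names and no measured value. The normalized tables held only 11908 of the mouse and 18674 of the human genes, so a gene's level may have entered through them. A name was found only where a normalized table held its symbol, and the classic inducible pair Hspa1a and Hspa1b was therefore outside the set.

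Polyadenylated RNA was sequenced from 4 groups of 3 libraries each, in 2 experiments. In the mouse, lineage-negative, Kit-positive (LK) progenitors were sorted from fetal livers of E13.5 embryos. The WT group was Ddx21f/f, with loxP sites around part of the gene for the RNA helicase DDX21 and no Cre, and the cKO group was Vav-Cre; Ddx21f/f, in which the Vav promoter drives Cre in blood cells. In the human experiment, blood stem cell-like cells were made from H1, an established embryonic stem cell line, and transduced with lentivirus shNC-mCherry (control hairpin) or shDDX21-mCherry (hairpin against DDX21). They were sorted as CD34+ CD45+ CD43+ shRNA+ cells 2 days later. WT had no Cre, so Cre and the loss of Ddx21 cannot be told apart in the mouse, and 1 hairpin label stands for the human knockdown. The labels do not say that the 3 libraries of a group came from separate embryos, pools or cultures, so p-values measure only the spread between these libraries.

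Molecular chaperones bind unfolded stretches of other proteins and let go of them in cycles driven by ATP. HSP70 proteins take up short hydrophobic stretches, J proteins bring the substrate and trigger ATP hydrolysis, and HSP110 proteins exchange the nucleotide. HSP90 completes kinases and receptors, and the ring-shaped chaperonins enclose whole proteins: the TCP1/CCT ring folds actin and tubulin in the cytosol, and HSPD1 with its lid HSPE1 works in mitochondria. HSF1 is the transcription factor that induces many of these genes under heat or misfolding through repeats of the heat shock element, while genes for chaperones of the endoplasmic reticulum (ER) carry the ER stress element. Blood progenitors divide fast and make much ribosome and cytoskeletal protein, and DDX21 itself acts in the nucleolus in ribosome production.

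The promoters with a full match to either element are shown because they let the motif be seen in place; most members with a promoter window have neither. They come from RefSeq (GRCm38.p6, mouse only), which gives 250 bases before to 50 after each start. Of the mouse members without a hyphen, 60 of 74 had a window there, 78 windows in all. Those without a window, among them Hsp90aa1, Hsp90ab1, Hspa8, Hspa9 and Hsf1, were not searched. Capitals mark each motif match, on either strand, and all runs are 5′ to 3′ on the gene's strand. Hspe1 is at chr1:55087998-55088147 (plus strand), Dnajb6 at chr5:29735828-29735897 (plus) and Hsph1 at chr5:149636287-149636309 (minus, past the start). Hspa5 is at chr2:34771940-34772089 (plus), Hsp90b1 at chr10:86705445-86705694 (minus) and Dnajc3 at chr14:118937782-118937931 (plus).
Hspe1, heat shock element: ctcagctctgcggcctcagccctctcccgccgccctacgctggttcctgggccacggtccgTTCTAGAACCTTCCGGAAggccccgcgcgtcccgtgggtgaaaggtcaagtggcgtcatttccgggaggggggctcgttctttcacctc
Dnajb6, heat shock element: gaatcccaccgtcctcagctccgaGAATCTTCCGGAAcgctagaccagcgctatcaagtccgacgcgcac
Hsph1, heat shock element: tgctgcagaTTCTGGAAAGTTCt
Hspa5, ER stress element: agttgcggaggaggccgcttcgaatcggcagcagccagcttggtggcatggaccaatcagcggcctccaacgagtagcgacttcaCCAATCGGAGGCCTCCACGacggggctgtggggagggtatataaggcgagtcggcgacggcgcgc
Hsp90b1, ER stress element: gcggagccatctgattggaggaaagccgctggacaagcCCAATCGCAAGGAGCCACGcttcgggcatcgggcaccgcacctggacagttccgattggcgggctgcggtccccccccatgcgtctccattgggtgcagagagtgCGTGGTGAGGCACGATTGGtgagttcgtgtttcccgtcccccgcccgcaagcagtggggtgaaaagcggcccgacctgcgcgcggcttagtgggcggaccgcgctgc
Dnajc3, ER stress element: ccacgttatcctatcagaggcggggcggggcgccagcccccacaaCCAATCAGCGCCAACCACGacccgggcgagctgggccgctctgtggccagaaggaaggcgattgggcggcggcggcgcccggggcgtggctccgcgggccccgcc

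The heat shock element was searched on both strands as 3 alternating units, GAA, TTC and GAA or TTC, GAA and TTC, with 2 free bases between units, and the Hspe1 stretch holds 2 matches that overlap. It was found in 4 of 60 members (6.67%), against 0.662% of 27025 genes in the table. The 4 members were Hspd1, Hspe1, Dnajb6 and Hsph1. Another Hspd1 window held no match. Hspd1 and Hspe1 are divergent neighbours whose starts lie 216 bases apart, so 285 bases of their windows are the same sequence read from opposite strands and count for both. The ER stress element, CCAAT and CCACG with 9 free bases between them, searched on both strands, was in 3 of 60 members (5%), Hspa5, Hsp90b1 and Dnajc3, against 0.137% of genes. These are letter matches in short windows and say nothing about binding.

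Library totals ran from 21116079 to 23898130 counts in the mouse and from 15289510 to 19798608 in the human experiment. The spread between libraries, as edgeR's biological coefficient of variation, was 10.5% in the mouse and 2.23% in the human experiment, so the same change is easier to call in the human cells. In the mouse, WT 3 differed from the other WT libraries (chi-square per degree of freedom 15.7 and 10.9, against 1.96 between WT 1 and WT 2). Among cKO libraries, cKO 1 and cKO 2 differed most (25.1), with cKO 3 at 7.25 and 7.82 from them. Every pair within a human group was at 1.54 to 1.71, so small human p-values rest on a very low spread between libraries. The deviations of WT 3 and cKO 2 from their group means went together (r = 0.408, a correlation across genes and not across independent samples). The targeted gene fell to 19.7% of WT in the mouse and 14.5% of shNC in the human cells. The Kit- and CD34-type progenitor markers were present but not constant. In the mouse they summed to 1709 to 1750 CPM in WT and 1769 to 1784 CPM in cKO. Of 8 tested there, 2 were called higher and 3 lower. In the human cells they summed to 2393 to 2426.5 CPM in shNC and 2663 to 2701 CPM in shDDX21. Of 7 tested there, 4 were called higher and 3 lower.

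In control cells 1 gene led the set in both species. Per length, mouse Hsp90ab1, the constitutive cytosolic HSP90, stood at 7808 ± 359 TPM (SD, n = 3) in WT and made up 24% of all member transcripts. Hspa8, the constitutive HSP70, followed at 3814 ± 170 TPM, then Hspd1 at 3742 ± 166 and Hsp90aa1 at 3664 ± 186 TPM. The last 3 do not differ beyond their spread, while Cct2, the next, had 1448 ± 78.5 TPM. In human shNC cells HSP90AB1 made up 27.5% at 3173 TPM, ahead of HSPA8 at 1405 TPM, HSP90AA1 at 959 ± 6.56 TPM and HSPA5 at 516 ± 3.97 TPM. Levels of these genes may be affected by reads shared with processed pseudogenes, since the handling of reads that fit several genes is not given in the sources used here. TPM, a level per exon length, is used to rank genes within a group and, for the cytosolic members, beside the summed CPM. All other differences between groups are on TMM-scaled CPM (counts scaled to library size).

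**Figure D1:**
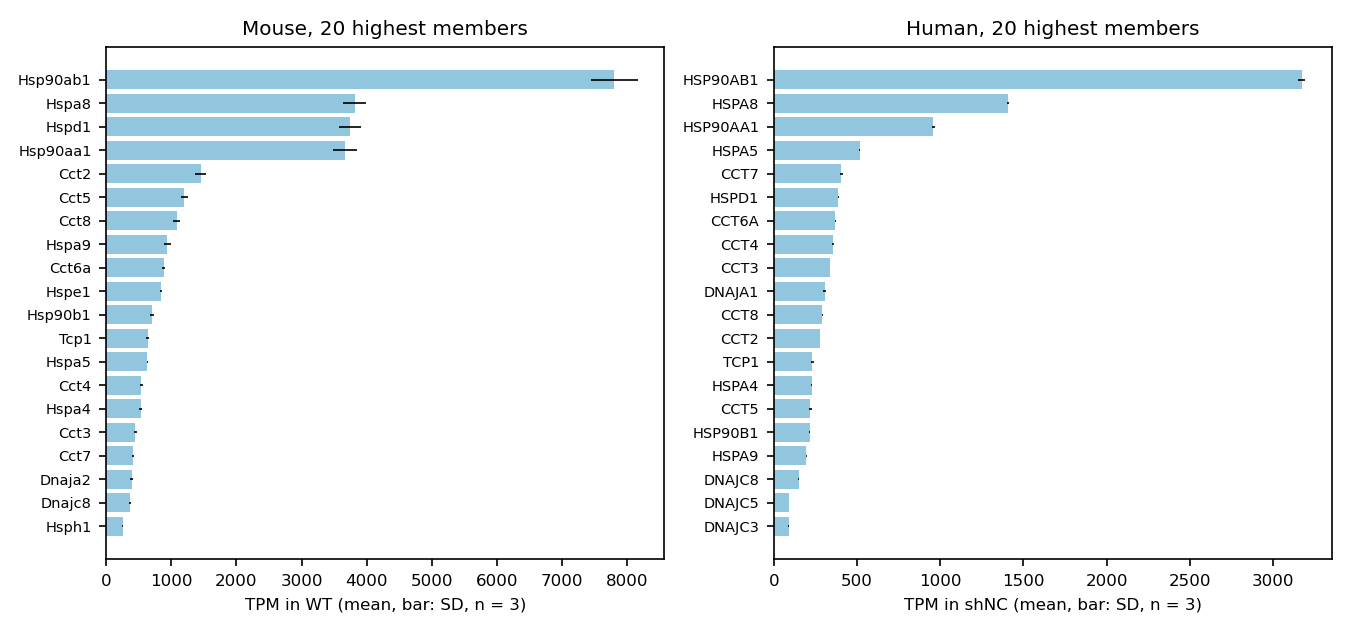
Mean level of the 20 highest members in control libraries, in TPM on a linear axis, with SD over 3 libraries as black bars. Hsp90ab1 stands highest in both species, at 7808 TPM in mouse WT and 3173 TPM in human shNC.

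In the mouse knockout most members kept a level that the test could not separate from WT. Of 71 members tested, 6 were higher in cKO, 13 were lower and 52 were not called by edgeR's quasi-likelihood test (Benjamini-Hochberg adjusted p under 0.05 over all genes). Across all 14918 genes tested, 36.5 percent were called, 20.7 percent as higher and 15.8 percent as lower, against 26.8 percent, 8.45 percent and 18.3 percent of the members. The share of members lower was thus near that of all genes, and the share higher below it. The median log2 fold change was -0.05 for members and 0.0006 for all genes. The other 4 mouse members, Dnajc22, Hspb1, Hspb7 and Hspb8, did not pass the filter on low counts. Among genes with a mean of at least 5 CPM, 41.7 percent of all genes were called, 20.9 percent higher and 20.8 percent lower, against 27.4, 8.06 and 19.4 percent of 62 members. Libraries of the groups did not overlap for 28 of 71 members, against 49.0 percent of all genes, and a change of at least 1.5-fold was called for 3 members, against 16.7 percent.

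In the human knockdown most members were called, and mainly as lower. Of 73 members, all tested, 40 were lower in shDDX21, 15 were higher and 18 were not called. Across all 20188 genes tested, 52.7 percent were called, 27.4 percent as lower and 25.3 percent as higher, against 54.8 percent of members lower and 20.5 percent higher. Members are abundant, and among genes with a mean of at least 5 CPM 70.7 percent of all genes were called, 38.5 percent lower and 32.1 percent higher, against 75.8, 54.5 and 21.2 percent of 66 members. Libraries did not overlap for 60 of 73 members, against 57.4 percent of all genes, and a change of at least 1.5-fold was called for 12, against 19.8 percent. The median log2 fold change of the members was -0.18, against 0.0052 for all genes. In bulk libraries, fewer cells of a type and less RNA per cell cannot be told apart.

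**Figure D2:**
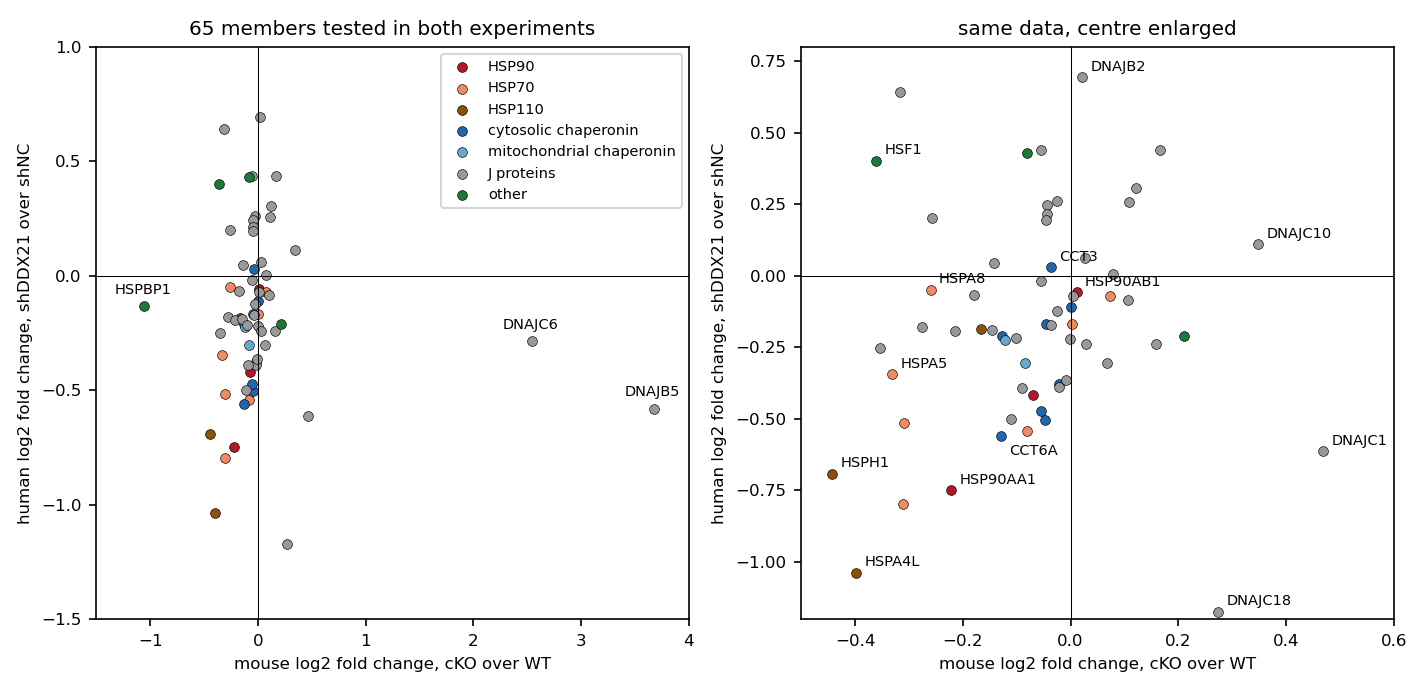
Each point is 1 of the 65 members tested in both experiments, with the mouse log2 fold change (cKO over WT) on the horizontal axis, the human one (shDDX21 over shNC) on the vertical axis, and colour for the role; the right panel enlarges the centre and leaves out points beyond its limits. HSP110, HSP90 and HSP70 members lie mostly at or below 0 on the human axis, and DNAJB5 and DNAJC6 stand far to the right at 3.67 and 2.54.

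The HSP110 group, the nucleotide exchange factors of HSP70, was lower in both experiments in all 3 of its members. Of all genes with at least 5 CPM, 20.8 percent were lower in the mouse and 38.5 percent in the human cells. Hsph1 (chromosome 5, 149614287 to 149636376, mm10) had 491.1, 481.6 and 506.7 CPM in WT and 346.1, 384.3 and 358.2 CPM in cKO. Every cKO library lay below every WT library, a log2 fold change of -0.44 (SE 0.047, edgeR adjusted p 0.000396). Human HSPH1 (chromosome 13, 31134973 to 31162388, hg38) had 188.5, 191.8 and 182.2 CPM in shNC and 116.2, 119.1 and 112.8 CPM in shDDX21. The groups did not overlap and the log2 fold change was -0.69 (SE 0.031, edgeR adjusted p 2.02e-31).

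HSPA4L, a relative of HSPA4 abundant in testis, showed the largest human fall of the group. It had 28.52, 26.37 and 26.11 CPM in shNC and 12.01, 15.77 and 11.9 CPM in shDDX21, a log2 fold change of -1.04 (SE 0.082, edgeR adjusted p 1.95e-18). In the mouse Hspa4l went from 60.19, 61.43 and 60.56 CPM in WT to 45.55, 48.91 and 43.81 CPM in cKO, a log2 fold change of -0.40 (SE 0.056, edgeR adjusted p 0.00148). In both species the perturbed libraries were all below the controls. HSPA4 itself fell by 0.17 on the log2 scale in the mouse (edgeR adjusted p 0.0191) and by 0.18 in the human cells (edgeR adjusted p 1.33e-09). The mouse HSPA4 call was lost without WT 2 (adjusted p 0.0518), cKO 1 (0.0658) or cKO 3 (0.0825).

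Among HSP70 proteins, the ER member HSPA5 (BiP), which holds nascent secretory proteins and the stress sensors of the ER, fell in both experiments. Mouse Hspa5 had 739, 725.2 and 703.5 CPM in WT and 589.8, 571.3 and 561.3 CPM in cKO. Human HSPA5 had 897.8, 905.9 and 883.1 CPM in shNC and 714, 707.8 and 694.2 CPM in shDDX21. No library of a perturbed group reached the controls in either species. The log2 fold changes were -0.33 (SE 0.037, edgeR adjusted p 0.000475) and -0.34 (SE 0.020, edgeR adjusted p 7.83e-25). The test of their difference gave 0.01 (SE 0.040, edgeR adjusted p 0.802), which bounds the difference only to the size of that error; with scaling to total counts the difference was 0.11 (adjusted p 0.0303).

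The remaining HSP70 members were lower in 1 more of 7 cases in the mouse and in 6 more of 7 in the human cells. With HSPA5, 25 percent of HSP70 members were lower in the mouse, near the 20.8 percent of all genes with at least 5 CPM. In the human cells 87.5 percent were lower, against 38.5 percent of such genes. Mouse Hspa8 fell from 4409, 4343 and 4522 CPM to 3606, 3787 and 3693 CPM, with no overlap (log2 fold change -0.26, SE 0.037, edgeR adjusted p 0.00166). Human HSPA8 was at 1798, 1836 and 1804 CPM in shNC and 1753, 1756 and 1751 CPM in shDDX21, a difference of -0.05 on the log2 scale (edgeR adjusted p 0.0193). That small human call was lost without shDDX21 1 (adjusted p 0.0519), and with upper-quartile scaling its sign turned to 0.02. The mitochondrial HSPA9 (mortalin) was at 0.003 in the mouse (SE 0.047, edgeR adjusted p 0.971) and fell by 0.17 on the log2 scale in the human cells (edgeR adjusted p 7.1e-10).

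HSPA6, a human HSP70 with no mouse identifier in the set and a gene that is strictly stress-inducible, was chosen here after its values were seen because it is below the 5 CPM used for naming. It had 3.122, 3.786 and 2.194 CPM in shNC and 1.335, 0.4742 and 0.6264 CPM in shDDX21. All 3 knockdown libraries were below all controls (log2 fold change -1.85, SE 0.278, edgeR adjusted p 2.96e-08). The mouse inducible pair Hspa1a and Hspa1b, outside the set and near identical to each other, gave summed counts of 7, 3 and 3 for WT and of 8, 15 and 5 for cKO. The pair did not pass the filter on low counts and was not tested.

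HSP90 divided by isoform. The inducible cytosolic isoform HSP90AA1 (chromosome 14, 102080742 to 102139699, hg38) had 1294, 1303 and 1303 CPM in shNC and 772, 776.6 and 771.2 CPM in shDDX21. The 3 knockdown libraries were close to each other, at 59.5% of the control mean (log2 fold change -0.75, SE 0.019, edgeR adjusted p 1.26e-45). Mouse Hsp90aa1 had 3828, 3830 and 3994 CPM in WT and 3196, 3516 and 3284 CPM in cKO, without overlap (log2 fold change -0.22, SE 0.046, edgeR adjusted p 0.00899). With total-count or upper-quartile scaling the mouse call was lost (adjusted p 0.0887 and 0.0693). The human fall was deeper by 0.53 on the log2 scale (SE 0.047, edgeR interaction adjusted p 2.27e-06).

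The constitutive isoform stayed close to control in both species. Mouse Hsp90ab1 had a log2 fold change of 0.01 (SE 0.047, edgeR adjusted p 0.871), with overlapping groups. Human HSP90AB1 had 2519, 2546 and 2483 CPM in shNC and 2457, 2421 and 2380 CPM in shDDX21. Its log2 fold change was -0.06 (SE 0.018, edgeR adjusted p 0.0048), lost without shDDX21 3 (adjusted p 0.0511) and at 0.01 with upper-quartile scaling. The ER isoform HSP90B1 (GRP94), which folds integrins and Toll-like receptors, had 745.2, 737.2 and 751.2 CPM in shNC and 554.7, 558.2 and 558.9 CPM in shDDX21. That was a fall by 0.42 on the log2 scale (edgeR adjusted p 6.66e-29), while mouse Hsp90b1 had -0.07 (SE 0.034, edgeR adjusted p 0.153).

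**Figure D3:**
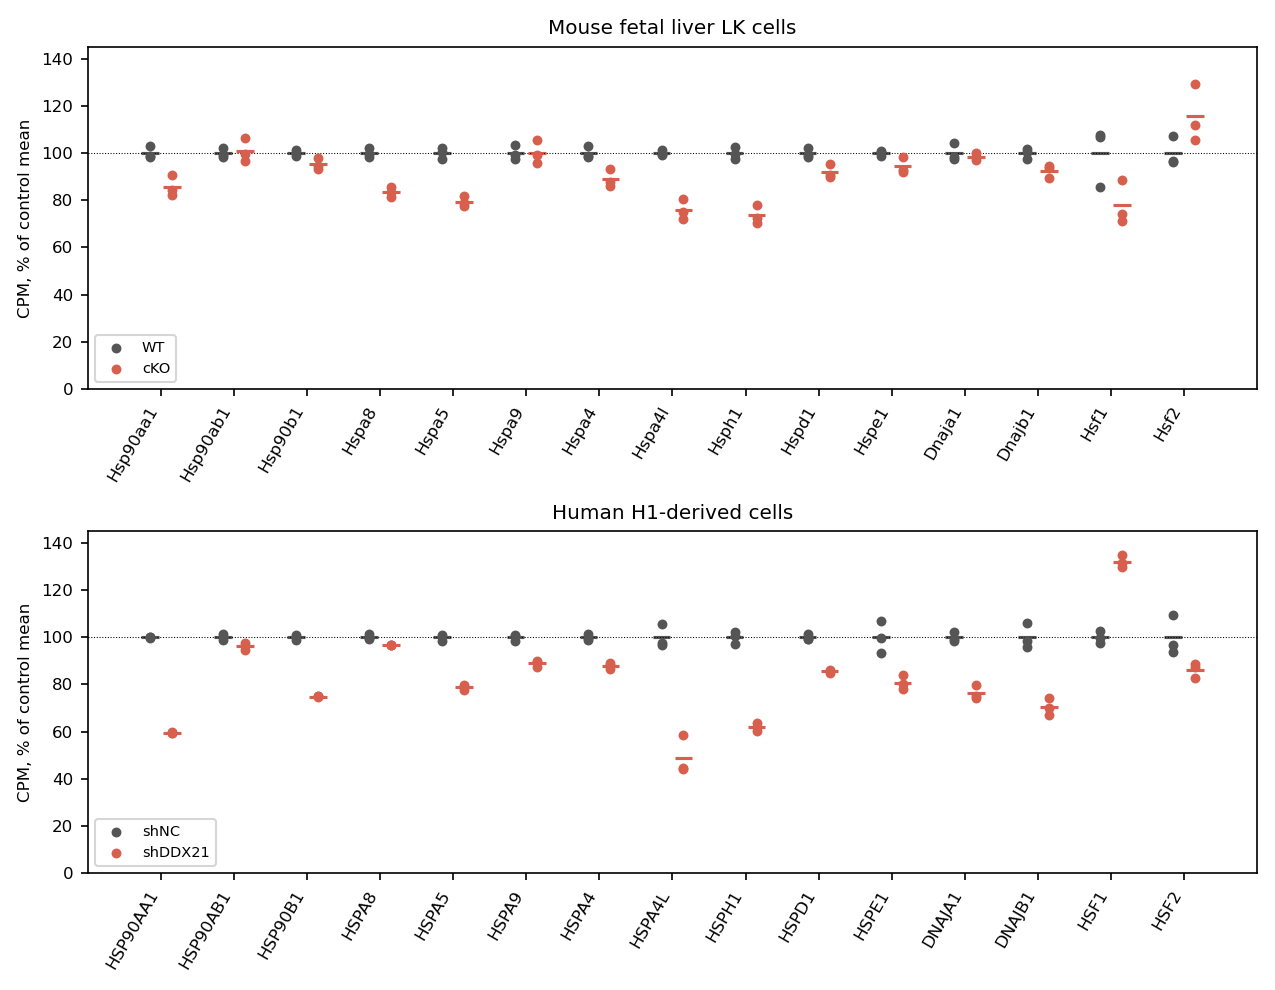
Levels of 15 HSP90, HSP70, HSP110, mitochondrial chaperonin, J protein and heat shock factor genes in each library, as percent of the control mean in CPM (dots: libraries; bars: group means). Human HSP90AA1 lies at 59.5% and HSPA4L at 49.0% of shNC, Hsph1 at 73.6% of WT in the mouse, and HSF1 is above control in the human and below it in the mouse cells.

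The cytosolic chaperonin is a ring of 8 different subunits that are present in equal numbers in the protein. In the human cells 7 of 8 subunit transcripts fell, by unequal amounts, and CCT3 was not called. Of all human genes with at least 5 CPM, 38.5 percent were called lower. CCT6A (chromosome 7, 56051685 to 56063989, hg38) had 372.8, 384.7 and 374.9 CPM in shNC and 256, 256.9 and 254.2 CPM in shDDX21, the deepest fall (log2 fold change -0.56, SE 0.024, edgeR adjusted p 3.4e-32). CCT3 had 343.7, 350.5 and 343.4 CPM in shNC and 359.4, 350.4 and 348.6 CPM in shDDX21. Its groups overlapped (log2 fold change 0.03, SE 0.024, edgeR adjusted p 0.308), although with upper-quartile scaling it was called higher at 0.10.

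Between these ends, the human log2 fold changes were -0.50 for CCT4, -0.47 for CCT5, -0.38 for CCT7, -0.21 for TCP1, -0.17 for CCT2 and -0.11 for CCT8. The CCT8 call was lost with upper-quartile scaling, at -0.04 (edgeR adjusted p 0.176). Neighbours CCT4 and CCT5, with errors of 0.027 and 0.026, do not differ beyond their errors. The summed chaperonin level was 2568, 2602 and 2526 CPM in shNC and 2101, 2104 and 2096 CPM in shDDX21. All 3 knockdown sums lay below the controls.

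In the mouse 2 of 8 subunits were called lower, Cct6a at -0.13 (SE 0.040, edgeR adjusted p 0.0393) and Tcp1 at -0.13 (SE 0.034, edgeR adjusted p 0.0225). That share, 25 percent, is near the 20.8 percent of all mouse genes with at least 5 CPM called lower. Cct6a had 862.7, 856.7 and 864 CPM in WT and 767.3, 826.7 and 767.8 CPM in cKO, without overlap. DESeq2 called neither subunit, and neither was called when any of WT 1, WT 2, WT 3, cKO 1 or cKO 3 was left out, with edgeR adjusted p of 0.0706 to 0.15 for Cct6a and 0.0527 to 0.0943 for Tcp1. The other 6 mouse subunits had log2 fold changes from -0.05 to 0.001, and their groups overlapped. The effect in the mouse was above that in the human cells for CCT4, CCT5, CCT6A and CCT7 by 0.36 to 0.46 on the log2 scale, with edgeR interaction adjusted p of 1.89e-05 or less for CCT4, CCT6A and CCT7 and 4.64e-05 for CCT5.

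Per length, the control subunits were not level with each other. In mouse WT they ran from 409 TPM for Cct7 to 1448 TPM for Cct2, a ratio of 3.54. In human shNC they ran from 219 TPM for CCT5 to 406 TPM for CCT7, a ratio of 1.85. Cct7 was lowest in the mouse and CCT7 highest in the human cells on this scale, which rests on the deposited exon lengths. In CPM, with no length correction, CCT4 was the lowest subunit in both species and the ratios were 1.63 and 1.52.

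**Figure D4:**
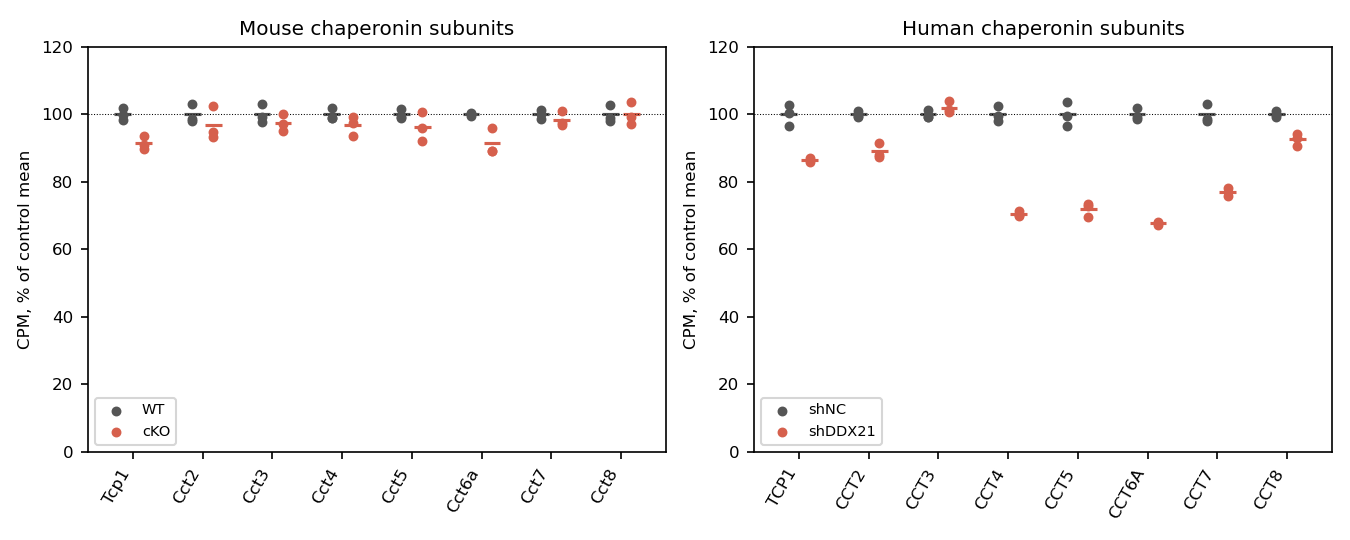
Each of the 8 TCP1/CCT subunits in each library, as percent of its control mean in CPM (dots: libraries; bars: group means). In the human panel CCT6A, CCT4 and CCT5 lie lowest and CCT3 stays at control, and in the mouse panel all 8 means lie at 91.4% of WT or above.

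The mitochondrial chaperonin HSPD1 (HSP60) had 782.1, 796.6 and 782 CPM in shNC and 668, 675.5 and 679 CPM in shDDX21, a fall by 0.22 on the log2 scale (edgeR adjusted p 1.09e-15). Its lid HSPE1 (HSP10) fell by 0.30 (edgeR adjusted p 1.82e-05) from 33.12, 37.86 and 35.28 CPM to 28.44, 27.62 and 29.78 CPM. In neither gene did the human groups overlap. In the mouse, where both are read from the divergent promoter printed above, Hspd1 was at -0.12 (SE 0.038, edgeR adjusted p 0.0433) and Hspe1 at -0.08 (SE 0.038, edgeR adjusted p 0.129). The Hspd1 call was absent without WT 1, WT 2, WT 3, cKO 1 or cKO 3, with adjusted p between 0.0875 and 0.158.

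J proteins choose the substrates and places of work for HSP70. In the mouse 6 of 41 tested were higher (14.6 percent, against 20.7 percent of all genes) and 2 lower (4.88 against 15.8 percent). In the human cells 10 of 39 were higher (25.6 against 25.3 percent) and 16 lower (41 against 27.4 percent). Of human genes with at least 5 CPM, 38.5 percent were lower and 32.1 percent higher, so the lower share of J proteins is near that of such genes. DNAJA1 and DNAJB1 were called lower in the human cells and not called in the mouse. DNAJA1 fell by 0.39 (SE 0.029, edgeR adjusted p 1.14e-19) and DNAJB1, the J protein of the heat shock response, by 0.50 (SE 0.044, edgeR adjusted p 2.1e-16). DNAJB1 had 76.25, 84.2 and 78.21 CPM in shNC and 59.18, 55.72 and 53.24 CPM in shDDX21, without overlap. The mouse values were -0.02 (SE 0.038, adjusted p 0.694) for Dnaja1 and -0.11 (SE 0.042, adjusted p 0.0761) for Dnajb1, and the effects differed between the experiments by 0.37 and 0.39 (edgeR interaction adjusted p 7.78e-05 and 0.000531).

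The largest change of any member was in mouse Dnajb5 (chromosome 4, 42949814 to 42959425, mm10), a J protein known from muscle, where it takes part in redox control of class II histone deacetylases. Its WT libraries held 26, 27 and 24 counts and its cKO libraries 371, 342 and 353, or 1.166, 1.314 and 1.114 against 16.16, 13.86 and 16.01 CPM. The groups were far apart, with the cKO mean at 1281% of WT (log2 fold change 3.67, SE 0.127, edgeR adjusted p 2.36e-06). Human DNAJB5 had 4.815, 6.593 and 7.09 CPM in shNC and 4.106, 4.15 and 4.043 CPM in shDDX21, a fall by 0.58 (edgeR adjusted p 0.000711).

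Dnajc6 (auxilin, chromosome 4, 101496631 to 101642799, mm10), which strips clathrin from vesicles, rose second most. Its WT libraries held 25, 24 and 36 counts and its cKO libraries 166, 193 and 179, or 1.121, 1.168 and 1.671 against 7.229, 7.821 and 8.117 CPM (log2 fold change 2.54, SE 0.164, edgeR adjusted p 3.63e-05). Human DNAJC6 started far higher, at 127.4, 124.7 and 128.3 CPM in shNC, and fell to 105.7, 103.2 and 103.3 CPM (log2 fold change -0.28, edgeR adjusted p 1.05e-11). In both species the groups were apart, in opposite directions, and DNAJB5 and DNAJC6 differed between the experiments by 4.26 and 2.83 on the log2 scale (edgeR interaction adjusted p 2.02e-08 and 6.58e-09).

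The ER J proteins Dnajc1, Dnajc10 and Dnajc18 were also higher in cKO. Dnajc1 had 32.16, 31.1 and 29.93 CPM in WT and 40.63, 44.9 and 43.44 CPM in cKO (log2 fold change 0.47, SE 0.063, edgeR adjusted p 0.00124), and human DNAJC1 fell by 0.61 (edgeR adjusted p 4.8e-10). Dnajc10 (ERdj5), a disulfide reductase that prepares misfolded proteins for export, rose in both: by 0.35 in the mouse (edgeR adjusted p 0.000354) and by 0.11 in the human cells (edgeR adjusted p 0.00276). It was the single member called higher in both experiments. DNAJC18 had 8.096, 9.008 and 9.341 CPM in shNC and 3.747, 4.031 and 3.929 CPM in shDDX21, a fall by 1.17 (edgeR adjusted p 8.11e-12), while mouse Dnajc18 rose by 0.27 (edgeR adjusted p 0.0196; 0.0644 without WT 1, 0.0816 without WT 2 and 0.0532 without cKO 3). Mouse Dnajc7, a J protein that also binds HSP90, was at 0.16 (edgeR adjusted p 0.0489) and was not called without WT 1, WT 2, WT 3, cKO 2 or cKO 3 (adjusted p 0.0512 to 0.158).

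Human J proteins that rose were led by DNAJB2, a neuronal and muscle co-chaperone with ubiquitin-binding motifs. It had 26.25, 26.7 and 26.95 CPM in shNC and 42.04, 40.9 and 46.41 CPM in shDDX21 (log2 fold change 0.70, SE 0.059, edgeR adjusted p 4.95e-17). DNAJC4 rose by 0.64 (edgeR adjusted p 5.78e-11), and DNAJB13, a sperm axoneme protein, and the mitochondrial DNAJC30 each by 0.44 (edgeR adjusted p 8.39e-07 and 0.000222). None of these 4 was called in the mouse, and the effects differed for DNAJB2, DNAJC4 and DNAJB13 (edgeR interaction adjusted p 0.00091, 0.00655 and 0.00633) but not by test for DNAJC30 (0.188). Mouse Dnajc25 and Dnajc11 fell by 0.35 and 0.21 (edgeR adjusted p 0.00459 and 0.0111).

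**Figure D5:**
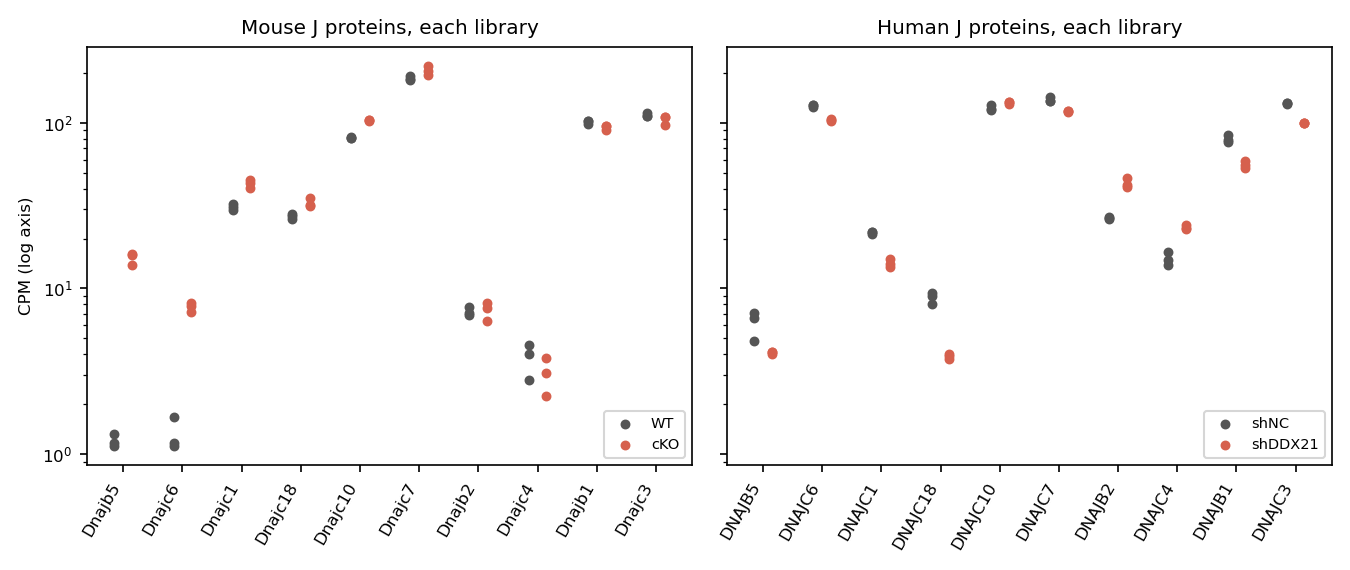
CPM on a log axis for 10 J proteins in each library (dots). Mouse Dnajb5 and Dnajc6 lie near 1 CPM in WT and above 7 CPM in cKO; human DNAJC18 goes from 8.1 to 9.3 CPM in shNC to 3.7 to 4.0 CPM in shDDX21.

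Small heat shock proteins, which hold unfolding proteins without ATP, were scarce in the mouse. Hspb1, the family's main stress member, had at most 3 counts in any mouse library and Hspb7 had 0 in all 6, which allows up to 3 counts a library. Hspb6 was the single family member tested there, at 3.812, 3.699 and 3.295 CPM in WT and 1.916, 1.743 and 2.585 CPM in cKO (log2 fold change -0.80, SE 0.175, edgeR adjusted p 0.011); it too lies below the 5 CPM for naming. Human HSPB1 had 23.6, 25.85 and 23.69 CPM in shNC and 28.13, 27.98 and 26.99 CPM in shDDX21 (log2 fold change 0.19, SE 0.066, edgeR adjusted p 0.0132; 0.0734 without shNC 1 and 0.0631 without shNC 3). The HSP70 exchange factor Hspbp1 had 57.14, 46.92 and 24.04 CPM in WT and 31.88, 11.87 and 17.87 CPM in cKO. The groups overlapped, and a log2 fold change of -1.06 (SE 0.413) was not called (edgeR adjusted p 0.0842). The partner HSPBAP1 rose by 0.43 in the human cells (edgeR adjusted p 3.14e-05).

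HSF1, the regulator of the heat shock response, went opposite ways. Human HSF1 had 55.19, 56.92 and 53.96 CPM in shNC and 72.68, 71.91 and 74.71 CPM in shDDX21, with no overlap (log2 fold change 0.40, SE 0.043, edgeR adjusted p 4.76e-13). Mouse Hsf1 had 71.31, 71.84 and 57.27 CPM in WT and 59.09, 47.45 and 49.47 CPM in cKO. The groups overlapped, because WT 3 lay below cKO 1 (log2 fold change -0.36, SE 0.115, edgeR adjusted p 0.0441), and the call was lost without WT 1 (adjusted p 0.136), WT 2 (0.141), cKO 2 (0.104) or cKO 3 (0.143). The difference between the effects was -0.76 (SE 0.131, edgeR interaction adjusted p 0.000406). HSF2, a related factor of development, was at 0.21 in the mouse (edgeR adjusted p 0.134) and at -0.21 in the human cells (edgeR adjusted p 0.0171; 0.0866 without shDDX21 1 and 0.141 without shNC 2).

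Members were also grouped by place of work. Members with no place assigned, most of them J proteins, are outside these counts. In the mouse they include Dnajb5, Dnajc6 and Dnajc7, all called higher. In the human cells DNAJB2 and DNAJB6 among them were called higher, and DNAJB1 and DNAJC7 lower. Of the cytosolic members, 19 of 24 were lower in the human cells (79.2 percent, against 27.4 percent of all genes and 38.5 percent of those with at least 5 CPM) and 1 was higher. In the mouse 8 of 22 were lower (36.4 percent, against 15.8 and 20.8 percent) and 0 higher. Their summed level was 9104, 9229 and 9034 CPM in shNC and 7808, 7795 and 7709 CPM in shDDX21, and 23236, 23179 and 23969 CPM in WT and 20996, 22655 and 21490 CPM in cKO. In both experiments every perturbed sum lay below every control sum on this CPM scale. In TPM the mouse sums overlapped, at 22770, 23068 and 24709 in WT and 21969, 24856 and 23160 in cKO. The human TPM sums stayed apart, at 8857, 8882 and 8802 in shNC and 6852, 6870 and 6880 in shDDX21. Of 14 ER members, 7 were lower (50 percent) and 3 higher (21.4 percent) in the human cells, and 2 lower (14.3 percent) and 3 higher (21.4 percent) in the mouse, where the shares are near those of all genes.

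Across the experiments, 65 members were tested in both and 17 of them were called in both. Of these, 10 were lower in both (CCT6A, DNAJC11, HSP90AA1, HSPA4, HSPA4L, HSPA5, HSPA8, HSPD1, HSPH1 and TCP1), 1 was higher in both, and 6 went opposite ways. Over all 10313 matched genes 16.8 percent were called in the same direction, 10.4 percent as lower and 6.43 percent as higher in both, and 12.8 percent in opposite directions. The 11 of 65 members in the same direction are therefore a share close to that of all genes. Of the 65, 37 differed between the experiments in the interaction test, against 56.2 percent over all genes. The mouse effect lay above in 27 members, against 35.8 percent of all genes, and below in 10, against 20.4 percent. The median mouse minus human difference was 0.1111 for the members and 0.0873 for all matched genes. Species, cell source and the means of losing DDX21 differ together between the experiments and cannot be told apart.

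Genes that work with the members were counted in lists chosen for their function, to be read against the all-gene shares called lower among genes with at least 5 CPM, 38.5 percent in the human cells and 20.8 percent in the mouse. Of 27 co-chaperones and regulators of HSP70 and HSP90 in the human cells, 16 were lower (59.3 percent) and 5 higher. HYOU1, the ER partner of HSPA5, fell by 0.95 on the log2 scale, from 209.8 ± 1.78 CPM to 108.5 ± 2.60 CPM (SD, n = 3; edgeR adjusted p 3.37e-40), and the HSP90 immunophilins FKBP5 and FKBP4 fell by 0.79 and 0.49. In the mouse 7 of 28 were lower (25 percent, near the share of all genes) and 1 higher, among them Stip1, which links HSP70 to HSP90, at -0.25 and the HSP90 activator Ahsa1 at -0.22 (edgeR adjusted p 0.00299 and 0.00186).

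Of 22 ER folding and unfolded protein response genes, 15 were lower (68.2 percent) and 6 higher in the human cells, and 5 lower (22.7 percent) and 2 higher in the mouse. The human disulfide isomerase PDIA6 fell by 0.76 and the lectin chaperones CANX and CALR by 0.60 and 0.45 on the log2 scale. Of the mitochondrial quality control and import genes, 9 of 18 were lower in the human cells (50 percent), led by the import receptor TOMM70 at -1.06, and 7 of 17 in the mouse (41.2 percent), among them the protease Lonp1 at -0.35. Of the prefoldin and chaperonin cofactor list, which holds prefoldin, which hands actin and tubulin to the ring, phosducin-like proteins and the tubulin cofactors that act after release, 4 of 12 were lower (33.3 percent) and 5 higher in the human cells. In the mouse 1 of 14 was lower and 1 higher. PFDN4 fell by 1.26 (edgeR adjusted p 4.1e-19) and the tubulin cofactor TBCD rose by 0.21.

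Other cell and handling markers moved with the groups. Over all genes tested, 20.7 percent were called higher and 15.8 percent lower in the mouse, and 25.3 and 27.4 percent in the human cells. Among genes with at least 5 CPM these shares were 20.9 and 20.8 percent, and 32.1 and 38.5 percent. Immediate-early genes respond to tissue handling, as some heat shock genes do. They summed to 50.7 to 62.1 CPM in WT and 124 to 147 CPM in cKO. Of 12 tested, 6 were higher and 1 lower, and Jund and Egr2 were at 0. In the human cells the list summed to 1663 to 1701 CPM in shNC and 1430 to 1444 CPM in shDDX21. There 10 of 17 genes were lower and 5 higher. Hepatocyte markers, 10 mouse genes, summed to 1.41 to 1.76 CPM in WT and 29 to 33.3 CPM in cKO, with Apoc3 and Serpina1c at 0. The 5 tested were all higher, but the filter can be passed on cKO counts alone, so this count adds nothing to the sums. Granulocyte and monocyte markers had lower sums in both experiments (687 to 948 against 321 to 569 CPM in the mouse, and 699 to 713 against 534 to 540 CPM in the human cells). In the mouse 7 of 7 were called lower, and in the human cells 3 of 4, while CSF1R rose by 0.22 (edgeR adjusted p 3.36e-13). Endothelial markers summed to 49.7 to 54.0 CPM in WT and 86.9 to 93.7 CPM in cKO, with 4 of 6 higher, and to 1607 to 1653 CPM in shNC and 1430 to 1450 CPM in shDDX21, with 3 of 6 lower and 2 higher. Macrophage markers summed to 7.38 to 8.12 against 7.21 to 8.44 CPM in the mouse. In the human cells they summed to 53.1 to 59.6 against 40.9 to 42.6 CPM, with 3 of 4 lower and 1 higher. Erythroid and megakaryocyte sums were higher in both experiments. Erythroid sums were 251.2 to 289 against 330 to 391 CPM in the mouse, with 3 of 7 genes higher and 1 lower. In the human cells they were 304 to 312 against 375 to 386 CPM, with 5 of 7 higher and 1 lower. Megakaryocyte sums were 63.0 to 74.8 against 111.5 to 147.8 CPM in the mouse, with 3 of 5 higher and 0 lower. The human ones were 1488 to 1552.5 against 1759 to 1787 CPM, with 2 of 3 higher and 0 lower. The part of these cell types and of handling in the chaperone results was not tested.

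These 3 hyphenated human names are transcripts beside members. DNAJC3-DT, a divergent transcript next to the ER co-chaperone DNAJC3, had 7.831, 6.332 and 7.878 CPM in shNC and 16.84, 14.52 and 17.08 CPM in shDDX21. It rose by 1.13 on the log2 scale (edgeR adjusted p 8.08e-16), while DNAJC3 itself fell by 0.39 (edgeR adjusted p 3.31e-17). The antisense DNAJC9-AS1 rose by 0.51 (edgeR adjusted p 0.0054) and HSPA2-AS1 was at -0.21 (edgeR adjusted p 0.24). Whether counting used strand is not given in the sources used here, so reads from bases shared by a gene and its partner cannot be told apart. DNAJC3-DT and DNAJC3 share only positions 95677139 to 95677367 of chromosome 13. HSPA2-AS1 reaches into HSPA2, while DNAJC9-AS1 and DNAJC9 do not overlap.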

How the data were processed

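Messenger RNA was sequenced in 12 libraries, 3 per group. STAR, featureCounts, DESeq2, mm10 and hg38 are named, without roles, in the submitters' processing notes. The authors deposited raw counts per gene with an exon length, and per the file headers a second table with normalized signal and log2 ratios, which was used for symbols only. Strand and multi-read settings are not given in the sources used here.

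Counts were tested in each experiment with edgeR 4.0.16 in R 4.3.3 (filterByExpr, TMM, glmQLFit and glmQLFTest, two-sided), with Benjamini-Hochberg adjustment over all genes and a call at 0.05. SE is the absolute log2 fold change over the root of F. The interaction was fitted over all 12 libraries, matched by symbol. TPM was computed from counts and the deposited exon length. Genes were named by a rule: a fixed list (23 of them members), the 6 largest calls per direction with at least 5 CPM, 5 shared calls, 3 smallest interaction p, and up to 3 genes per context list. Members and lists were chosen with earlier results of these data known. The procedure was tested on simulated counts: at 2-fold, 66 of 67 mouse and 67 of 67 human genes were recovered, and at 1.5-fold 44 and 59 of 67. Unchanged genes called numbered 18 in the mouse and 15 in the human simulation. Only well-counted genes were changed, with independent libraries and edgeR's own fitted spread. Recovery of changes under 1.5-fold or in genes with low counts was therefore not tested. With 3 libraries against 3, an exact permutation test cannot give a p below 0.1. Floors cover counting error only. Whether same-numbered libraries were paired is not settled by their deviations. Protein sequences were not used here, and human HSPA1A and HSPA1B were not analysed here. Values of 1 member are not reported here.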

Additional observations from a re-analysis of the deposited data

Results flagged for a closer look

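The effect of losing DDX21 differed between the mouse and human experiments, by edgeR's interaction test with Benjamini-Hochberg adjustment, for 27 of the named members. Over all members the count was 37 of 65, a share near the 56.2 percent of all matched genes, and 3 of the named members were chosen for their smallest interaction p. The median mouse minus human difference over all matched genes was itself 0.0873. It was 0.043 with upper-quartile factors and 0.1822 with total counts, so small positive differences lie near the general offset. The values that follow are the mouse minus the human log2 fold change. The mouse effect lay above the human one for J proteins by 4.26 in DNAJB5, 2.83 in DNAJC6, 1.45 in DNAJC18, 1.08 in DNAJC1, 0.40 in DNAJC7, 0.39 in DNAJB1, 0.37 in DNAJA1 and 0.24 in DNAJC10. It lay above for HSP90 and HSP70 relatives by 0.64 in HSPA4L, 0.53 in HSP90AA1, 0.35 in HSP90B1, 0.25 in HSPH1 and 0.17 in HSPA9. Among chaperonins the difference was 0.46 in CCT4, 0.43 in CCT6A, 0.42 in CCT5, 0.36 in CCT7, 0.22 in HSPE1, 0.11 in CCT8 and 0.10 in HSPD1, and it was 0.42 in HSF2. The mouse effect lay below the human one in DNAJC4 (-0.96), HSF1 (-0.76), DNAJB2 (-0.68), HSPBAP1 (-0.51), DNAJB13 (-0.49) and HSPA8 (-0.21).

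The differences for HSPD1 (adjusted p 0.0442) and CCT8 (0.0498) were near the threshold. They were lost under 13 and 14 of 18 alternatives, and 22 of the 27 held under every alternative run.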

How the results depend on the processing

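Of the named calls, 10 of 18 in the mouse, 31 of 36 in the human cells and 22 of 27 in the interaction held under every alternative run. The mouse calls that held were Hsph1, Hspa4l, Hspa5, Hspa8, Dnajb5, Dnajc1, Dnajc6, Dnajc10, Dnajc11 and Dnajc25, and those lost under at least 1 were Cct6a, Tcp1, Hspd1, Hspa4, Hsp90aa1, Hsf1, Dnajc7 and Dnajc18. Requiring 1.5-fold left 3 mouse members (2 higher, 1 lower), 12 human members (3 higher, 9 lower) and 0 called in the same direction in both. Lower mouse calls numbered 7 with total counts and 8 with upper-quartile factors, and the interaction calls below the human effect 6 with total counts. The same-direction count was 7 with DESeq2, 6 with total counts and 5 with upper-quartile factors. Leaving out each library in turn gave 12 to 17 mouse calls (4 to 6 higher, 8 to 12 lower), 52 to 56 human calls, and 7 to 11 in the same direction. The lowest counts came without WT 2 or cKO 3, at 12 mouse calls each. Leaving out WT 3 and cKO 2 together, chosen after seeing the data, gave 20 mouse calls and 11 in the same direction. With upper-quartile factors, human HSP90AB1 reversed to 0.0132 and HSPA8 to 0.0215, neither called, and all human genes shifted to a median of 0.0743. In CPM, with no length correction, the highest over lowest chaperonin subunit was 1.63 in the mouse and 1.52 in the human controls. With the replicate block 16 mouse members were called (5 higher, 11 lower), 55 human ones (15 higher, 40 lower), 36 in the interaction and 8 in the same direction. The same-numbered correlations of deviations were 0.316, -0.177 and 0.013 in the mouse and -0.014, -0.002 and -0.001 in the human experiment. They cannot decide whether same-numbered libraries were paired, because deviations from a mean of 3 libraries depend on each other. The cause of these shifts was not tested.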
